A study of Mus musculus with 12 samples.

Results

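ISG15 conjugation is the attachment of a small ubiquitin-like protein, ISG15, to other proteins, and the 5 genes that encode its core in the mouse were followed here: ISG15 itself, UBA7, UBE2L6, HERC6 and USP18. They were chosen by name, as the 5 rows with these symbols among the 23636 gene symbols of the table. The RNA came from CT26, a mouse colon carcinoma cell line, and was sequenced as 12 strand-specific mRNA libraries in 4 groups of 3 biological replicates. The groups were No treatment, CX3CL1 (2 µg/ml of the chemokine), IFN-γ (100 ng/ml) and CX3CL1+IFN-γ. The study's sequencing methods give 8 hours for CX3CL1. The dose of IFN-γ and its 8 hours are from the legend of the study's heatmap. For quantitative PCR, the methods describe cytokine treatment of tumor lines with TNF-α beside IFN-γ, whereas the library labels name IFN-γ alone. The study's account of its results also places TNF-α with IFN-γ, before CX3CL1, for CT26 cells given these agents. Whether the libraries labelled IFN-γ also received TNF-α, and in which order the agents were added, is not given by the labels. All 4 groups share 1 cell line, whose libraries held vimentin (VIM) at 1684 to 4831 TPM (a transcript level scaled by length and by the library's total), the epithelial keratin KRT18 at 18.4 to 53.6 TPM, and 7 leukocyte markers at a summed 0.156 to 1.94 TPM. Other epithelial markers were nearly absent, with KRT8 at no more than 0.364 TPM, KRT19 at no more than 0.0613 TPM and CDH1 at no more than 0.043 TPM. EPCAM was listed at 0 in every library. KRT18 was lower with IFN-γ than without treatment (log2 fold change -0.68 ± 0.18, adjusted p = 0.0346, limma) and with CX3CL1+IFN-γ (-1.02 ± 0.18, adjusted p = 0.00171), where VIM was lower too (-0.86 ± 0.21, adjusted p = 0.0186). Whether this has a part in the results below was not tested.

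Conjugation runs through a chain of enzymes, as ubiquitin does. UBA7 is the activating enzyme (E1) that charges ISG15, UBE2L6 is the conjugating enzyme (E2) that receives it, and HERC6 is the main ligase (E3) in mouse cells, which lack the HERC5 ligase of human cells. USP18 is the protease that removes ISG15 from its targets, and, bound to the receptor chain IFNAR2 and the adaptor STAT2, it also dampens type I interferon signaling. All of these genes are known as interferon-stimulated genes: STAT2 and IRF9 belong to the complex that binds interferon-stimulated response elements in promoters of this class, and free ISG15 can be released from cells and act on lymphocytes through the integrin LFA-1.

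All 5 genes were expressed in untreated cells and rose with CX3CL1 and with IFN-γ. The rises were 2.16-fold (UBE2L6) to 5.47-fold (USP18) in mean TPM with CX3CL1, and 4.25-fold (UBE2L6) to 9.89-fold (UBA7) with IFN-γ. With both agents the levels were close to those with IFN-γ alone. Their summed level was 284 ± 65.3 TPM (SD, n = 3) without treatment, 1016 ± 289 TPM with CX3CL1, 1812 ± 289 TPM with IFN-γ and 1933 ± 439.5 TPM with both.

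**Figure D1:**
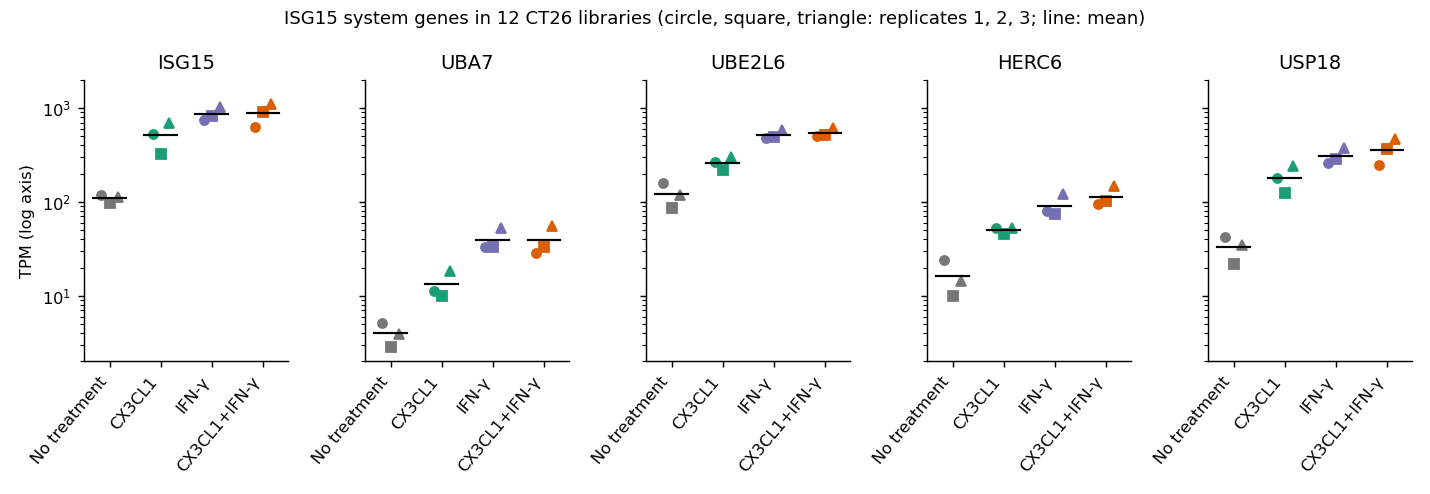
TPM (log axis) of each of the 5 genes in the 12 CT26 libraries, with 1 panel per gene, 1 marker per replicate and a line at the mean of each group. In every panel the 3 CX3CL1 libraries and the 3 IFN-γ libraries lie above the 3 untreated ones, while the IFN-γ and CX3CL1+IFN-γ libraries overlap.

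ISG15, the modifier, was present at 119, 96.7 and 114 TPM in untreated replicates 1 to 3, and at 524, 320.5 and 684 TPM with CX3CL1. It stood at 751, 813 and 1017 TPM with IFN-γ and at 624, 915 and 1095 TPM with both agents. Untreated libraries were low and close to each other, CX3CL1 libraries were all higher and spread widely with replicate 2 lowest, and the IFN-γ and combined libraries overlapped. By rank of mean TPM among all symbols, ISG15 moved from place 1581 without treatment to 289 with CX3CL1 and 151 with IFN-γ. The gene lies at chr4:156199424-156200818 on the minus strand (GENCODE annotation of GRCm38, the mm10 build). A processed pseudogene, AC151275.1, which was not analysed here, matched 482 bases of its transcripts at 95.2% identity, so reads of the copy could be counted in ISG15 or split from it.

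The 250 bases before the ISG15 start (RefSeq, GRCm38.p6, chr4:156200819-156201068, minus strand, printed 5′ to 3′ along the gene) are shown because STAT2 and IRF9, parts of the complex that binds the interferon-stimulated response element, rose with CX3CL1 and with IFN-γ. Capitals mark matches of the response element core GAAANNGAAA and of the shorter interferon regulatory factor half-site AANNGAAA on either strand.
ISG15 promoter: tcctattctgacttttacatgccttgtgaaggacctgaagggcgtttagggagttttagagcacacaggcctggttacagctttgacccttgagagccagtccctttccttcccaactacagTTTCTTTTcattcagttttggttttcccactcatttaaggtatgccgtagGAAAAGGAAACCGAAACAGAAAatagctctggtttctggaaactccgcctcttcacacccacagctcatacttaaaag
The window holds 3 overlapping copies of GAAANNGAAA between bases -78 and -57 from the start, and 4 of AANNGAAA, of which 3 lie inside those copies and 1 lies on the opposite strand at -128 to -121. Of the 32851 promoter windows of this length in the RefSeq table, 2.98% hold GAAANNGAAA and 21.3% hold AANNGAAA on either strand.

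UBA7, the activating enzyme, was the lowest of the 5 genes in each of the 4 groups. It measured 5.17, 2.88 and 3.97 TPM without treatment, 11.3, 10.04 and 18.3 TPM with CX3CL1, 32.9, 33.2 and 52.7 TPM with IFN-γ and 28.6, 33.4 and 56.0 TPM with both agents. The untreated, CX3CL1 and IFN-γ libraries formed 3 levels that did not overlap, and replicate 3 was the highest in each of the 3 treated groups. UBA7 lies at chr9:107975505-107984060 on the plus strand, overlapped on the same strand by GM20661, which was not analysed here, so reads of the shared stretch could belong to either.

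In the UBA7 window the 1 match was an AANNGAAA half-site on the opposite strand, at -27 to -20 from the RefSeq start. It is printed in capitals within 30 bases (RefSeq, GRCm38.p6, chr9:107975529-107975558, plus strand, 5′ to 3′) for comparison with the array in ISG15. The GENCODE start of UBA7, chr9:107975505, lies before these 30 bases, so by that annotation they are inside the gene.
UBA7 half-site: actcagtctagTTTCACTTttggtttcctg
Neither these motifs nor the interferon-γ-activated site motif TTCNNNGAA (in 7.02% of windows) or the NF-kB motif GGGANNTTCC (in 1.21%) was found as letters in the windows of UBE2L6 and HERC6. The windows of ISG15 and UBA7 also held no match of the last 2 motifs. Windows of 4 of the 5 genes were searched, and that of USP18 was not analysed here.

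UBE2L6, the conjugating enzyme, was at 157, 86.4 and 119 TPM in untreated cells and at 269, 217 and 299.5 TPM with CX3CL1. IFN-γ took it to 477, 491 and 576 TPM, and with both agents it measured 501, 513 and 609 TPM. Again the untreated, CX3CL1 and IFN-γ libraries did not overlap, and UBE2L6 had the highest mean of the 5 genes in untreated cells, where its range overlapped with that of ISG15. UBE2L6 lies at chr2:84798828-84810335 on the plus strand. Transcripts of 23 other genes shared stretches of 169 to 510 bases with it at 81.6% to 96.5% identity, so that part of its reads may fit more than 1 place.

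HERC6, the ligase, was at 24.0, 9.99 and 14.3 TPM without treatment and at 52.7, 45.5 and 53.25 TPM with CX3CL1. It reached 79.5, 74.0 and 121.0 TPM with IFN-γ and 94.0, 102 and 146 TPM with both agents. Its CX3CL1 libraries lay closest together, and its untreated libraries spread more widely for their level, with replicate 2 lowest. HERC6 lies at chr6:57581000-57664632 on the plus strand, where GM45193 overlaps it on the same strand and GM19244 on the opposite strand, neither of them analysed here.

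USP18, the ISG15 protease, was at 42.6, 21.9 and 34.9 TPM without treatment and at 181, 124 and 239 TPM with CX3CL1. It measured 257, 287.5 and 373 TPM with IFN-γ, then 249.8, 363 and 470.0 TPM with both agents. The lowest CX3CL1 library, replicate 2, was still well above the highest untreated one, and the highest CX3CL1 library lay just under the lowest IFN-γ library. USP18 lies at chr6:121245906-121270917 on the plus strand, with GM44148, not analysed here, overlapping on the opposite strand.

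Each gene was then compared between groups with limma, fitted to log2(TPM + 1) of 11878 genes averaging 0.2 TPM or more, with p-values adjusted by Benjamini-Hochberg over those genes. All 5 ISG15 system genes passed the filter. TPM carry no read depth and are relative within a library, so the errors rest on the spread between replicates alone. After a log2 fold change, ± gives limma's standard error, with the spread estimated over all 12 libraries. After a level in TPM, ± gives the SD of the 3 replicates. In such bulk RNA fewer expressing cells cannot be told apart from less RNA per cell. Fold changes below are differences of log2(TPM + 1). The added 1 makes changes of low genes such as UBA7 look smaller than they are. An exact permutation test of 3 libraries against 3 could not go below p = 0.1.

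The effect of CX3CL1 alone was asked first. All 5 genes rose, where 1.78% of the genes tested were called higher and 0.168% lower. USP18 had the largest change of the 5 (log2 fold change 2.42 with 0.29 as the standard error, adjusted p = 5.81e-04, limma), followed by ISG15 (2.14 ± 0.25, adjusted p = 5.81e-04), HERC6 (1.67 ± 0.27, adjusted p = 0.00391), UBA7 (1.49 ± 0.28, adjusted p = 0.0128) and UBE2L6 (1.14 ± 0.19, adjusted p = 0.00515). For each of the 5 genes, all 3 CX3CL1 libraries lay above all 3 untreated ones. The median of the 5 was 1.67, against -0.016 over the genes tested. The call of UBA7 was lost without No treatment replicate 2 (adjusted p = 0.0757, limma), No treatment replicate 3 (0.0593) or CX3CL1 replicate 3 (0.0672), and with no filter on low genes (0.0591). Without CX3CL1 replicate 2, the lowest treated library for each gene, all 5 calls were made.

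**Figure D2:**
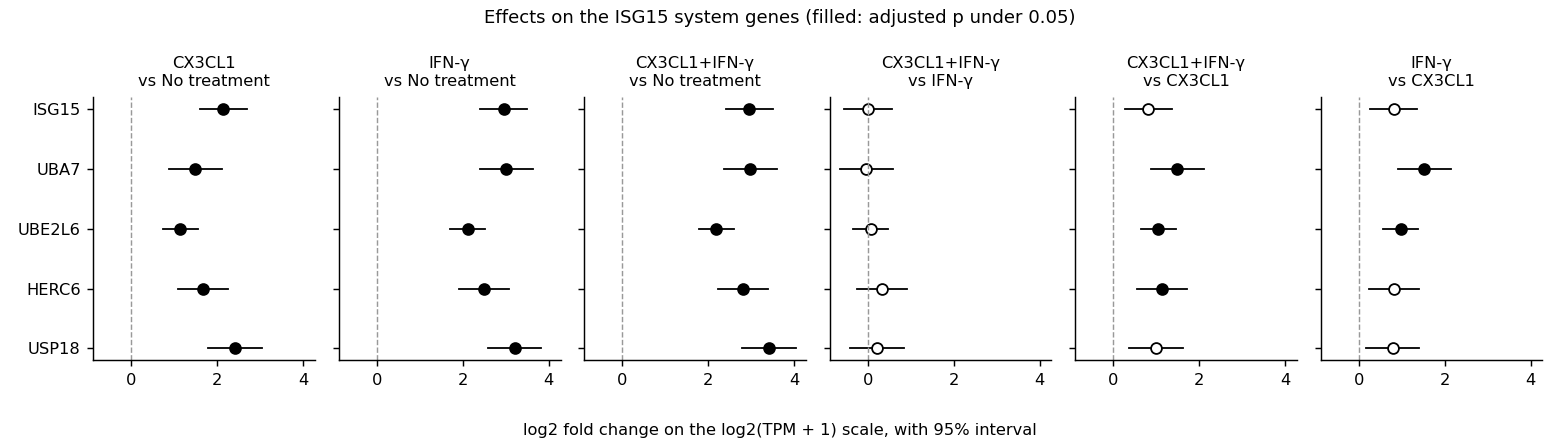
Log2 fold change of each gene on the log2(TPM + 1) scale (points) with its 95% interval (lines) in 6 comparisons, where filled points have an adjusted p under 0.05 by limma. The 5 points are filled in each comparison with untreated cells, all open at about 0 for CX3CL1+IFN-γ against IFN-γ, and mixed in the last 2 panels.

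IFN-γ raised all 5 genes, where 5.91% of the genes tested were called higher and 1.94% lower (702 and 230 genes, or 556 and 536 with quantile normalization). The order of the changes was USP18 (3.20 ± 0.29, adjusted p = 1.39e-05, limma), UBA7 (3.01 ± 0.28, adjusted p = 1.82e-05), ISG15 (2.95 ± 0.25, adjusted p = 9.58e-06), HERC6 (2.49 ± 0.27, adjusted p = 5.73e-05) and UBE2L6 (2.12 ± 0.19, adjusted p = 1.31e-05). The 95% intervals of neighbours in this order overlapped. The place of UBA7 depends on the added 1, and by the ratio of mean TPM it was first with IFN-γ (9.89, against 9.23 for USP18) and above HERC6 with CX3CL1 (3.30 against 3.14). UBE2L6 was last with both agents on either scale. All 5 calls were made under each alternative and without each library. Of 5 genes known for induction by IFN-γ (IRF1, GBP2, CXCL9, CIITA and SOCS1), 4 could be tested and all 4 rose in the libraries labelled IFN-γ. CIITA was too low to test, at no more than 0.0130 TPM in those libraries. GBP2 was also called higher with CX3CL1 alone (2.82 ± 0.36, adjusted p = 0.00103, limma), and the other 3 tested were not.

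CX3CL1+IFN-γ also raised all 5 genes over untreated cells, by 2.19 (UBE2L6) to 3.41 (USP18), where 8.21% of the genes tested were called higher and 3.72% lower (975 and 442 genes, or 797 and 888 with quantile normalization). With CX3CL1 added to IFN-γ, none of the 5 passed by limma, at an adjusted p of 0.975 to 0.999, and 0 of 5 had an unadjusted p under 0.05. In that comparison 0.345% of the genes tested were called higher and 0.0168% lower. The differences were 0.32 for HERC6 (95% interval -0.26 to 0.90), 0.21 for USP18 (-0.42 to 0.83), 0.07 for UBE2L6 (-0.34 to 0.48), 0.00 for ISG15 (-0.55 to 0.55) and -0.03 for UBA7 (-0.65 to 0.58). HERC6 was higher with both agents than with IFN-γ alone in 3 of 3 same-numbered pairs, by 1.18- to 1.38-fold, and UBE2L6 in 3 of 3 by 1.04- to 1.06-fold, whereas USP18, ISG15 and UBA7 were higher in 2 of 3. The upper ends of the intervals leave room for a further rise of up to 1.87-fold for HERC6 and 1.78-fold for USP18, and of at most 1.39-fold for UBE2L6.

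Adding IFN-γ to CX3CL1 raised 3 of the 5 genes, where 3.76% of the genes tested were called higher and 0.935% lower (447 and 111 genes, or 349 and 228 with quantile normalization). These were UBA7 (1.49 ± 0.28, adjusted p = 0.00872, limma), HERC6 (1.14 ± 0.27, adjusted p = 0.0295) and UBE2L6 (1.05 ± 0.19, adjusted p = 0.00584). USP18 (0.99 ± 0.29, adjusted p = 0.0751) and ISG15 (0.81 ± 0.25, adjusted p = 0.0979) did not pass. Replicate numbers paired the CX3CL1 and CX3CL1+IFN-γ libraries across all genes, and a fit blocked on that number passed 5 of 5 genes, where it called 1035 of all genes tested higher and 334 lower. Without the block, HERC6 lost its call with no filter on low genes (adjusted p = 0.0796, limma), and without any 1 CX3CL1 library or without CX3CL1+IFN-γ replicate 3 (adjusted p up to 0.140, limma), ISG15 passed without CX3CL1 replicate 3 (0.0409) and USP18 passed without CX3CL1+IFN-γ replicate 1 (0.0478).

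The 2 single agents were also compared with each other, where 3.52% of the genes tested were called higher with IFN-γ and 1.06% lower (418 and 126 genes, or 278 and 236 with quantile normalization). UBA7 was higher with IFN-γ than with CX3CL1 (1.52 ± 0.28, adjusted p = 0.00960, limma), and so was UBE2L6 (0.98 ± 0.19, adjusted p = 0.0115). HERC6 (0.81 ± 0.27, adjusted p = 0.108), ISG15 (0.81 ± 0.25, adjusted p = 0.0919) and USP18 (0.79 ± 0.29, adjusted p = 0.144) did not pass, although each was higher with IFN-γ in 3 of 3 same-numbered pairs. The fit blocked on replicate number, which paired these groups too, passed 5 of 5, where it called 1222 of all genes tested higher and 379 lower. Both calls were lost without IFN-γ replicate 3 (adjusted p = 0.0522 for UBA7 and 0.0593 for UBE2L6, limma), and ISG15 passed without CX3CL1 replicate 3 (0.0434).

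Whether IFN-γ altered the effect of CX3CL1 was examined with the interaction term, which is the combined effect less the sum of the 2 single effects. All 5 estimates were negative: -2.21 ± 0.41 for USP18 (adjusted p = 0.125, limma), -2.14 ± 0.36 for ISG15 (0.0792), -1.52 ± 0.40 for UBA7 (0.411), -1.35 ± 0.38 for HERC6 (0.529) and -1.06 ± 0.27 for UBE2L6 (0.373). None passed, and by limma 0 of the 11878 genes tested did, so that 0% were called higher and 0% lower. With quantile normalization 1 gene passed, which was none of the 5. The fit blocked on replicate number called 3 genes higher and 49 lower, among them ISG15 (adjusted p = 0.0142, limma), USP18 (0.0189) and UBA7 (0.0452), although the numbers did not pair all 4 groups. Without No treatment replicate 1, 11 genes were called lower, none of them among the 5. At an unadjusted p under 0.05, 208 genes were negative and 65 positive, and all 5 ISG15 system genes were among the negative ones. The median of the 5 was -1.52, against 0.012 over the genes tested. For ISG15, the sum of the single effects was 5.09 on the log2 scale and the combined effect 2.95. For USP18 the sum was 5.62 and the combined effect 3.41. A sum of effects on this scale stands for multiplied fold changes of TPM + 1. Whether the rises in TPM themselves add up was not tested, so the size of the shortfall belongs to the log2 scale.

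**Figure D3:**
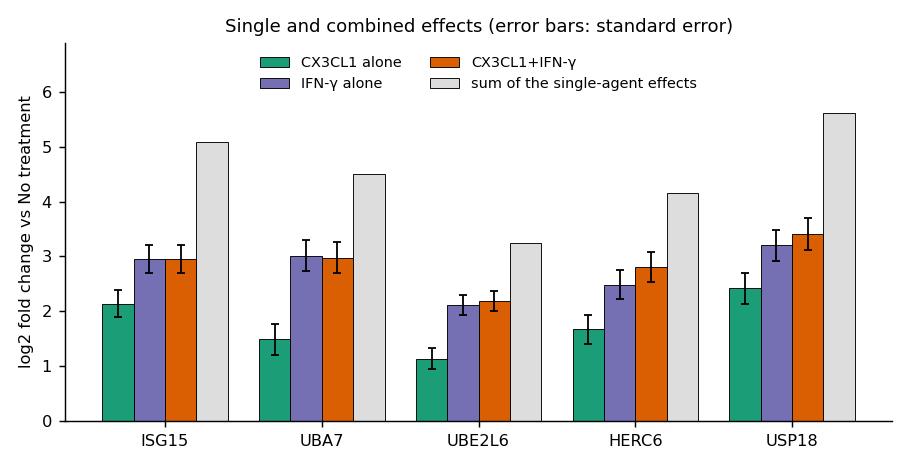
Log2 fold change over untreated cells (log2(TPM + 1) scale) of each gene with CX3CL1, with IFN-γ and with both, with standard errors, beside the sum of the 2 single-agent effects. For each gene the combined bar differs from the IFN-γ bar by at most 0.32 and lies 1.06 to 2.21 below the sum. On this scale the sum stands for multiplied fold changes, not for added rises in TPM.

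All comparisons with untreated cells share the same 3 control libraries, so the effects of the agents are given side by side. On the log2 scale the CX3CL1 effect was 75.5% of the IFN-γ effect for USP18, 72.6% for ISG15, 67.2% for HERC6, 53.7% for UBE2L6 and 49.4% for UBA7. The protease and the modifier had the largest shares, and the activating and conjugating enzymes the smallest. These shares carry no error, and differences between them were not tested.

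Since TPM are scaled by transcript length, levels can be set against each other within a library. UBE2L6 was present at 30.02 to 30.45 times the level of UBA7 in untreated cells, with little spread over the 3 libraries. The ratio was 16.4 to 23.8 with CX3CL1, 10.9 to 14.8 with IFN-γ and 10.9 to 17.5 with both, so that untreated, CX3CL1 and IFN-γ libraries did not overlap. The ratio of ISG15 to UBE2L6 was 0.757 to 1.12 in untreated libraries, 1.48 to 2.29 with CX3CL1, 1.58 to 1.77 with IFN-γ and 1.25 to 1.80 with both. The ratio of ISG15 to its protease USP18 was 2.80 to 4.42, 2.59 to 2.90 and 2.73 to 2.92 in the same groups, which overlapped, and 2.33 to 2.52 with CX3CL1+IFN-γ, below every other library. The ratio of HERC6 to UBA7 was 3.47 to 4.63 without treatment, 2.91 to 4.66 with CX3CL1 2.23 to 2.42 with IFN-γ and 2.61 to 3.29 with both.

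**Figure D4:**
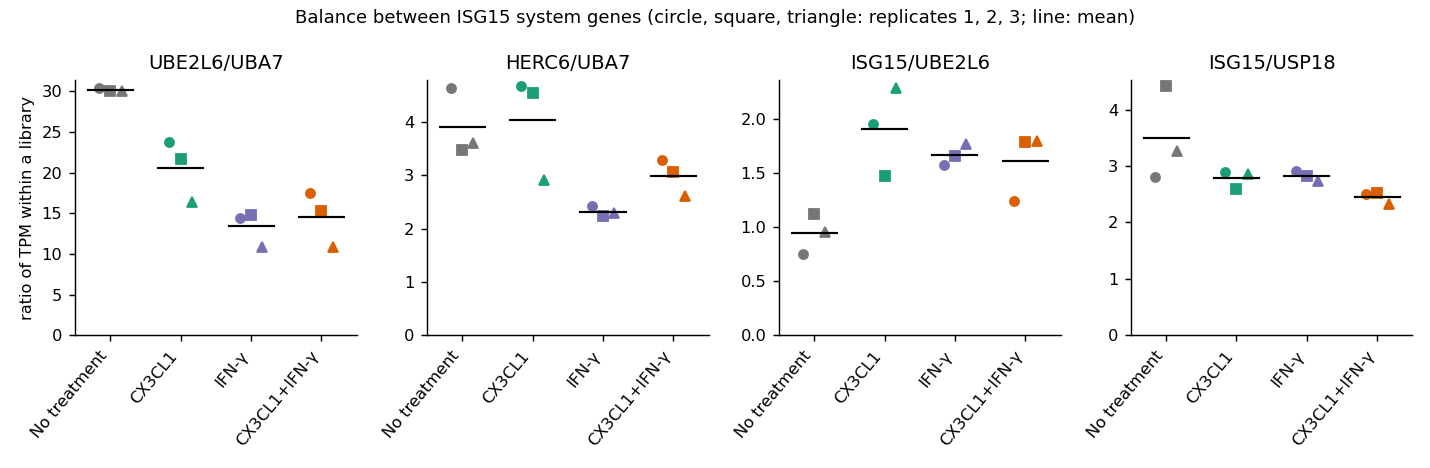
Ratio of TPM between pairs of ISG15 system genes within each library (axis from 0), with 1 marker per replicate and a line at the group mean. The UBE2L6/UBA7 ratio has a mean of 30.2 in untreated cells, 20.6 with CX3CL1 and 13.4 with IFN-γ, while the ISG15/USP18 ranges of untreated, CX3CL1 and IFN-γ libraries overlap and CX3CL1+IFN-γ libraries lie below them, at 2.33 to 2.52.

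In treated cells the order of mean TPM was ISG15, UBE2L6, USP18, HERC6 and UBA7 in all 3 groups. Neighbours in this order did not overlap, with the exception of UBE2L6 and USP18 with CX3CL1. In untreated cells UBE2L6 (121 ± 35.55 TPM) came before ISG15 (109.9 ± 11.7), and USP18 (33.1 ± 10.5) before HERC6 (16.1 ± 7.15), with overlap in both pairs, and UBA7 (4.004 ± 1.15) was last with none. ISG15 made up 39.4% of the summed TPM of the 5 genes in untreated cells and 49.4% with CX3CL1. UBE2L6 went from 42.2% to 26.4%.

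Over the 12 libraries the 5 genes followed each other closely in log2(TPM + 1), with Pearson's r from 0.961 (ISG15 and HERC6) to 0.994 (ISG15 and USP18). This is a description over 12 libraries that share the 4 group means. Within groups, replicate 3 lay above the mean of its group for each of the 5 genes in each of the 3 treated groups, by 0.08 (HERC6 with CX3CL1) to 0.56 (UBA7 with both agents) on the log2 scale. CX3CL1 replicate 2 lay 0.14 to 0.60 below.

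Among the 10749 other genes averaging 1 TPM or more, those most like each member were found by Pearson's r over the 12 libraries. For ISG15 they were ADAR (r = 0.993), GM7609 (0.992) and DHX58 (0.988), and for USP18 they included DHX58 (0.994) and TRIM14 (0.994). ADAR edits double-stranded RNA and DHX58 is an RNA helicase of the RIG-I family. UBA7 was most like IGTP (0.995), IRGM2 (0.995) and CCL5 (0.994), of which IGTP and IRGM2 are immunity-related GTPases, and UBE2L6 was most like H2-Q4 (0.996), STAT2 (0.995) and IRGM1 (0.995). For HERC6 they were TRIM12C (0.996), DDX60 (0.995) and IFI44 (0.990).

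Other enzymes reported to act on ISG15 were set beside the 5 genes. Of 7 (TRIM25, ARIH1, USP2, USP5, USP13, USP14 and USP21), 6 could be tested, and TRIM25, a ligase that is also an interferon-stimulated gene, was the 1 that rose. Among all genes tested, 1.78% were called higher with CX3CL1 and 5.91% with IFN-γ. It was at 63.1, 53.5 and 59.2 TPM without treatment, 109, 99.7 and 125.7 TPM with CX3CL1 and 133, 144 and 181 TPM with IFN-γ, with no overlap between these groups. Its log2 fold change was 0.91 ± 0.15 with CX3CL1 (adjusted p = 0.00455, limma) and 1.35 ± 0.15 with IFN-γ (6.69e-05). The other 5 ranged from -0.19 (USP2) to 0.14 (USP14) with CX3CL1 and from -0.13 (ARIH1) to 0.16 (USP5) with IFN-γ. USP13 was at no more than 0.0135 TPM in any library.

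Relatives of the E1, E2 and E3 were compared with each agent alone. Of 16 genes for the other E1 enzymes, the E2 relatives of UBE2L6 and the other HERC proteins, 15 could be tested, and by limma 0 passed with CX3CL1 or with IFN-γ. At an unadjusted p under 0.05 there were 0 with CX3CL1 and 1, ATG7, with IFN-γ, against 958 and 2611 of all 11878 genes tested. With 1.78% of all genes called higher with CX3CL1 and 5.91% with IFN-γ, a count of 0 in 15 is near the background. Of these 15, UBE2E2 had the largest change with CX3CL1 (0.29 ± 0.14, adjusted p = 0.698, limma), and ATG7 with IFN-γ (0.57 ± 0.18, adjusted p = 0.0753). UBE2L3, the closest relative of UBE2L6, was at 184 ± 10.8 TPM without treatment, 188 ± 35.3 TPM with CX3CL1 and 166 ± 8.26 TPM with IFN-γ. UBA1, the main E1 of ubiquitin, was at 279.8 ± 21.9, 268 ± 21.6 and 281 ± 25.03 TPM in the same groups. ATG7, the E1-like enzyme of autophagy, passed with IFN-γ when the fit was blocked on replicate number, which paired the untreated and IFN-γ libraries, and also without No treatment replicate 1 or with only the libraries compared.

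**Figure D5:**
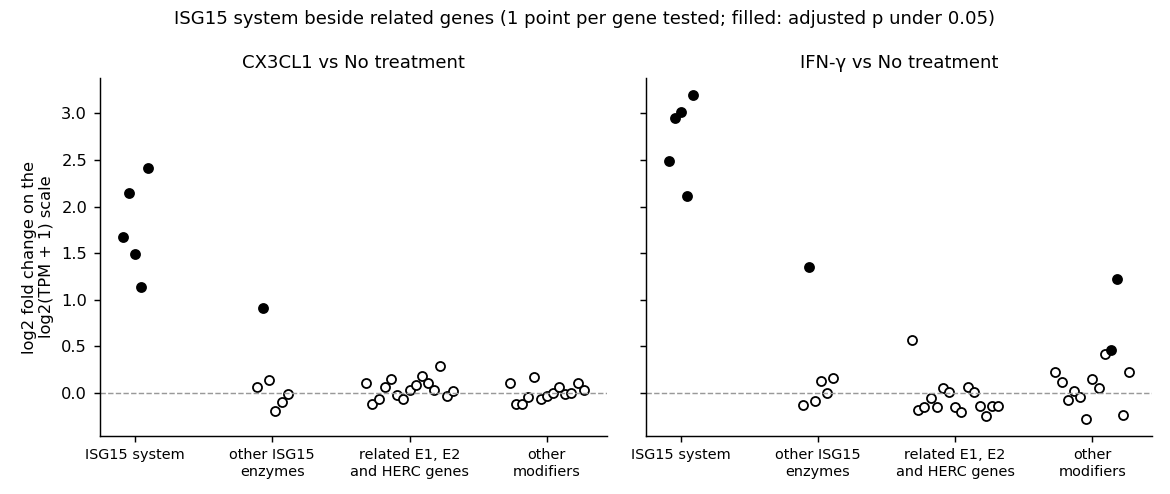
Log2 fold change (log2(TPM + 1) scale) with CX3CL1 and with IFN-γ of the 5 ISG15 system genes, 6 other enzymes reported to act on ISG15, 15 related E1, E2 and HERC genes and 13 other modifiers, with 1 point per gene and filled points for an adjusted p under 0.05. The 5 ISG15 system genes lie above 1 in both panels, and TRIM25 is the 1 filled point in the other lists with CX3CL1.

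Of 13 other ubiquitin and ubiquitin-like modifiers, 0 passed with CX3CL1 by limma, where 1.78% of the genes tested were called higher and 0.168% lower. A count of 0 in 13 is near that background. The lowest change was -0.12 (FAU), and 0 of the 13 had an unadjusted p under 0.05, against 958 of all 11878 genes tested. UBD, which encodes the modifier FAT10, passed with IFN-γ. It was listed at 0 in the 6 libraries without IFN-γ and at 2.59, 0.349 and 1.61 TPM with IFN-γ alone (adjusted p = 0.0268, limma). That call was lost without any one of the 6 libraries except IFN-γ replicate 2, and with no filter on low genes.

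Proteins reported to be modified by ISG15 were measured as well. Of 20 tested, 5 rose with CX3CL1 and 6 with IFN-γ, among them IFIT1 and IFIT3 with both, where 1.78% and 5.91% of all genes tested were called higher. These are themselves interferon-stimulated genes. The median of the 20 was 0.10 with CX3CL1 and 0.08 with IFN-γ, against -0.016 and 0.032 over all genes tested. IFIT3 had the largest change of the 20 with both agents given alone, 2.61 ± 0.41 with CX3CL1 (adjusted p = 0.00356, limma) and 4.997 ± 0.41 with IFN-γ (7.64e-06). MX1 was at 0.218 to 0.547 TPM in untreated libraries and at 2.13 to 5.80 TPM with CX3CL1 (adjusted p = 0.187, limma).

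Among genes for interferon receptors, their kinases and the factors that act on interferon-response elements, STAT2 (1.42 ± 0.21, adjusted p = 0.00288, limma) and IRF9 (0.80 ± 0.11, adjusted p = 0.00176) rose with CX3CL1. Both also rose with IFN-γ, as did IRF1 (2.31 ± 0.28, adjusted p = 1.52e-04) and IRF7 (3.84 ± 0.41, adjusted p = 5.20e-05). With CX3CL1, IRF1 measured 0.53 ± 0.28 (adjusted p = 0.778, limma) and IRF7 1.52 ± 0.41 (0.105). USP18's receptor partner IFNAR2 was at 13.6 ± 2.82 TPM without treatment, 17.3 ± 2.92 with CX3CL1 and 22.5 ± 5.18 with IFN-γ, and passed with both agents together (1.09 ± 0.21, adjusted p = 0.00317, limma).

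Type I interferon transcripts were scarce. Of 16 genes, 12 were listed at 0 in every library, and the sum of the 16 was at most 0.242 TPM in untreated libraries, 0.325 to 0.791 TPM with CX3CL1 and 0.568 to 1.16 TPM with IFN-γ. IFNB1, the 1 gene with enough signal to test, was at 0.106, 0.0720 and 0 TPM without treatment, at 0.199, 0 and 0.506 TPM with CX3CL1 (adjusted p = 1, limma) and at 0.568, 0.941 and 0.930 TPM with IFN-γ (0.0116). CX3CR1, the receptor of CX3CL1, was at 0 to 0.154 TPM over the 12 libraries and was not tested. The LFA-1 chain ITGAL was at no more than 0.0157 TPM, and ITGB2 was at 1.78 to 3.84 TPM. Whether low transcripts such as IFNB1 or CX3CR1 had a part in the rise of the ISG15 system was not tested.

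The genes on either side of the 5 were read as a check of position. AW011738, which lies 2485 bases from ISG15 on the opposite strand, was the 1 neighbour that rose with both agents given alone, from 2.01 TPM to 4.48 TPM with CX3CL1 (0.87, adjusted p = 0.00185, limma) and 8.93 TPM with IFN-γ (1.73, adjusted p = 3.75e-06). AGRN on the other side of ISG15, SERPING1 beside UBE2L6, and TRAIP and INKA1 beside UBA7 were called with IFN-γ but not with CX3CL1, and the differences between those effects were not compared. The neighbours of HERC6 (PPM1K and PYURF) did not pass in either comparison, and those of USP18 (TUBA8 and SLC6A13) were too low to test.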

How the data were processed

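The deposited table holds TPM per gene symbol. Per its methods, the authors aligned reads to mm10 and counted them per gene with STAR 2.7.3a in the VIPER pipeline and tested counts with DESeq2 1.22.1. How counts became TPM, the annotation and the strand setting are not given in the sources used here. Of 23636 symbols, 6747 were at 0 in every library. TPM hold no depth, and 10613 to 10824 symbols per library reached 1 TPM. Libraries were grouped by their treatment labels, and no 2 within a group were identical. The labels call replicates biological without naming separate cultures.

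From these values, log2(TPM + 1) of the 11878 symbols averaging 0.2 TPM or more was fitted with limma 3.58.1 (R 4.3.3; lmFit, eBayes with trend) over all 12 libraries without a block, with Benjamini-Hochberg adjustment and a threshold of 0.05. Data for 11878 genes were simulated from each gene's mean over the 12 libraries and its residual spread, with independent noise. A known change was added to 200 genes in the CX3CL1 libraries, which were compared with the untreated ones. Of 200 genes changed by log2 1, 173 were recovered with 7 false calls, and 199 of 200 changed by log2 2 with 4. The simulation held no deviations shared by same-numbered libraries, so its counts may differ from those for the real libraries. Replicate numbers were taken to pair 2 groups where each same-numbered pair correlated over 0.1 across genes in deviation from the group mean: 0.22 to 0.46 for No treatment and IFN-γ, 0.226 to 0.584 for CX3CL1 and IFN-γ, 0.351 to 0.428 for CX3CL1 and CX3CL1+IFN-γ, and 0.63 to 0.649 for IFN-γ and CX3CL1+IFN-γ.

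The members and lists were chosen with earlier results of these data known. Named were the 5 members, list genes that were called or had the largest or smallest change, the 3 genes most like each member by Pearson's r, and neighbouring, overlapping or near-identical genes (blastn 2.17.0, at least 150 bases). The alternative fits added 0.1 instead of 1 to the TPM, dropped the filter or raised it to 1 TPM, rescaled libraries by median ratio or by quantiles, left out the libraries of other groups, dropped the intensity trend, blocked on replicate number, required a log2 fold change of 1, or omitted 1 library. Some genes of the lists are not reported here by name.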

Additional observations from a re-analysis of the deposited data

How the results depend on the processing

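The calls with IFN-γ and with CX3CL1+IFN-γ against untreated cells were 5 of 5, and those of CX3CL1+IFN-γ against IFN-γ 0 of 5, under each alternative tried. Over 7 comparisons, 298 of 310 values of single genes kept their direction and side of the threshold under the alternatives other than leaving out a library, and 219 of 240 when 1 library was left out. Of these, 1 and 9 changed sign, all in CX3CL1+IFN-γ against IFN-γ, where ISG15 became -0.0013 with quantile normalization and, without 1 library, ran from -0.17 to 0.23, UBA7 from -0.31 to 0.19, UBE2L6 from -0.0173 to 0.16 and USP18 from -0.0048 to 0.45. Blocked on replicate number, the fit passed 5 genes for CX3CL1+IFN-γ against CX3CL1, 5 for IFN-γ against CX3CL1, and 3 (ISG15, UBA7 and USP18) for the interaction, which rests on groups that the numbers do not pair by the rule used (lowest same-number correlation 0.00472 for No treatment and CX3CL1, where 4 of 6 libraries correlated best with their own number). The block changed no other count of the 5 genes. Requiring a log2 fold change of at least 1 left 1 gene for IFN-γ against CX3CL1. Without 1 library, the counts ran from 4 to 5 for CX3CL1 against untreated cells, 2 to 4 for CX3CL1+IFN-γ against CX3CL1, 0 to 3 for IFN-γ against CX3CL1, and 0 for the interaction. The cause of these differences was not tested. The median over all genes moved by less than 0.1 under both scalings. Having 3 libraries per group, and TPM without depth, limits the precision.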
